A study of Mus musculus with 16 samples.

Results

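Lens and retina antigens were followed in medullary thymic epithelial cells (mTEC), the thymus cells that display proteins of other organs to developing T cells. The 41 genes were chosen by symbol, as known lens and retina proteins. They were 16 crystallins of the lens and 25 genes of the retina, out of 89407 rows of the count table. Each symbol matched 1 Ensembl gene.

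Libraries came from mice of 2 lines. In the Rbfox1 line, tKO (thymus knockout) mice had the labelled genotype Rbfox1 lox/lox with Foxn1 wildtype/cre, and controls were Rbfox1 lox/lox with Foxn1 wildtype/wildtype. In the Rbfox2 line, the same Foxn1 alleles were combined with Rbfox2 lox/lox. Foxn1-Cre is active in thymic epithelium, and since only tKO mice carried it, Cre and loss of the RBFOX gene cannot be told apart. Each of the 4 genotypes had 2 mice, 1 male and 1 female, and each number in the labels gave 1 library of mature and 1 of immature mTEC, for 16 libraries in all. By the labels the mice were C57BL/6, aged 4 to 6 weeks, whereas the methods describe the background of these lines as 129S2/Sv mixed with C57BL/6J. CD45- EpCAM+ Ly51- UEA+ cells were sorted by MHC class II, high for mature and low for immature mTEC.

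Total counts were 3737884 to 4636367 in mature and 1506134 to 2430287 in immature libraries, so depth and population went together. Epcam, Krt5 and Krt8 were counted in every library, and Aire was higher in mature mTEC, at 640 to 1585 CPM (the count relative to library size after TMM scaling) against 19.6 to 299 CPM. With Krt14, these mTEC identity genes summed to 2850 to 3551 CPM in mature and 7187 to 9754 CPM in immature mTEC. Aire, Fezf2, Cd80, Cd86 and H2-Aa summed to 6371 to 6877 against 2679 to 3195 CPM. The immature markers Itgb4, Pdpn, Ccl21a and Ackr4 summed to 268 to 349 against 843 to 1170 CPM. Rbfox2 was at 9.56 and 16.2 CPM in mature mTEC of Rbfox2 tKO mice against 57.1 and 58.1 CPM in their controls. Rbfox1 was at 34.1 and 29.9 CPM in mature mTEC of Rbfox1 tKO mice against 52.6 and 48.6 CPM, and at 152 and 153 CPM against 164 and 160 CPM in immature mTEC. Whole-gene counts do not tell transcripts with a deleted exon from intact ones.

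Crystallins are the soluble proteins that fill lens fibre cells. Alpha crystallins are small heat shock proteins that act as chaperones, and beta and gamma crystallins form a related family of structural proteins. In photoreceptors, light activates an opsin, a G protein (transducin) and a phosphodiesterase, and the fall in cyclic GMP closes cation channels. The visual cycle of the pigment epithelium and photoreceptors returns the chromophore to its light-sensitive form. Both organs are shielded from the immune system, and several of these proteins, among them S-arrestin (Sag) and IRBP (Rbp3), are autoantigens of experimental uveitis. Aire, in mature mTEC, promotes the expression of many such tissue-restricted genes.

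The sequences before the start sites of 9 of these genes are shown with the short motifs that they held there. RefSeq windows on GRCm38.p6 were found for 15 lens and 19 retina genes, and the 250 bases before the start were searched. TAATCC, the core that CRX and other OTX-type homeodomain factors recognise, was searched on both strands, as was TGCTGA, the core of the element of large MAF factors. TATAAA was searched on the sense strand, from 40 to 20 bases before the start. The stretches are the last 100 bases before the start, 5′ to 3′ on the strand of the gene, with matches to these letters or their complement in capitals, and no match overlapped another.

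The first group holds beta crystallins, including the neighbours Cryba4 and Crybb1 and the neighbours Crybb2 and Crybb3 of chromosome 5, whose levels are compared further on. They lie at chr11:77725294-77725393 (minus strand), chr5:112252519-112252618 (minus), chr5:112255720-112255819 (plus), chr5:113070118-113070217 (minus) and chr5:113081585-113081684 (minus).
Cryba1: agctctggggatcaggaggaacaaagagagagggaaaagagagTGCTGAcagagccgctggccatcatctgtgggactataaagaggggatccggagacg
Cryba4: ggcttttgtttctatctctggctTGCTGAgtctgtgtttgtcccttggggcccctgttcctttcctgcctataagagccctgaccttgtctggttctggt
Crybb1: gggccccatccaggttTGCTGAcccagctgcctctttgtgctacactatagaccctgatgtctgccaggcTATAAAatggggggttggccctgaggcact
Crybb2: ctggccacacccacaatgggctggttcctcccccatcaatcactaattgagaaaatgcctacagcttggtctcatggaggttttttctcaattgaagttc
Crybb3: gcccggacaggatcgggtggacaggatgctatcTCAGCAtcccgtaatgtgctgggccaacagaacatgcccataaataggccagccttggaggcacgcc

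The second group holds the photoreceptor regulator Crx, the retinal transporter Abca4, the rod channel subunit Cngb1 and the disc rim protein Rom1. They lie at chr7:15879956-15880055 (minus strand), chr3:122044360-122044459 (plus), chr8:95306586-95306685 (minus) and chr19:8929357-8929456 (minus).
Crx: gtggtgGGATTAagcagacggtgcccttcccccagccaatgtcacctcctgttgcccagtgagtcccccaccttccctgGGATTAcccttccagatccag
Abca4: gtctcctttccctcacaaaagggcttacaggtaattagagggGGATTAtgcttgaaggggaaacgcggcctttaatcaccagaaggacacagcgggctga
Cngb1: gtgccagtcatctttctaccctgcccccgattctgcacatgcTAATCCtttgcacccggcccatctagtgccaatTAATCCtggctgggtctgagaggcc
Rom1: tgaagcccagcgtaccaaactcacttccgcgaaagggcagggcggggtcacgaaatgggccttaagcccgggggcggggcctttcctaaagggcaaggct

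TAATCC was in 10 of 19 retina windows (52.6%) and 1 of 15 lens windows (6.67%), against 6.38% of the windows of 27025 genes. TGCTGA was in 10 of 15 lens windows (66.7%) and 5 of 19 retina windows (26.3%), against 15.8% of all windows. The further lens and retina genes described below differed less, with TAATCC in 1 of 15 lens (6.67%) and 5 of 29 retina windows (17.2%) and TGCTGA in 4 of 15 (26.7%) and 7 of 29 (24.1%). TATAAA at its set distance was in Crybb1 alone among the windows of the 41 genes and in 2.09% of all windows. Among the further genes it was in 1 of 29 retina windows (3.45%) and in 0 of 15 lens windows. Cryba1 holds tataaa nearer to its start than the set distance, so it is unmarked. The GENCODE start of Cryba1 (77725283) differs from the RefSeq start (77725293) from which the distance was taken. A match describes letters only, and these counts carry no test.

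The main comparison asked how lens and retina genes differ between mature and immature mTEC. The mean level was higher in mature mTEC for 38 of the 41 genes, and Crybb3, Cryab and Opn1sw had the higher mean in immature mTEC. No share of all rows was taken for this count, so it is no measure of the lists. In 26 of the 41 genes, 10 of lens and 16 of retina, the lowest of the 8 mature libraries lay above the highest of the 8 immature ones. The same held for 13.0% of all rows with a count and for 22.2% of protein-coding genes. For Crybb3 the order was the reverse, as for 5.6% of rows with a count. The remaining genes overlapped, among them Cryab, Sag and the sparsely counted genes. Mature libraries were deeper. With every library thinned to the smallest, fewer genes were without overlap, as given in the closing section.

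All 41 genes had a count in some mature library and 33 had one in every mature library. In immature mTEC, 5 genes (Cryab, Cryba2, Crybb3, Rom1 and Sag) were counted in every library, 30 in some and 6 in none. After every library was thinned to 1506134 counts, 12.3 ± 0.463 (SD, n = 8) of the 16 crystallins had a count in mature and 6.00 ± 1.85 in immature mTEC. The retina genes gave 20.4 ± 1.69 and 9.75 ± 3.15 of 25. Of 21942 protein-coding genes, 17320 ± 124 and 14887 ± 249 had a count at this depth. In these bulk samples, fewer cells that express a gene and less RNA per cell cannot be told apart.

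In edgeR's quasi-likelihood test, 22 of the 41 genes were called higher in mature mTEC and 1 lower, where a call needed an adjusted p under 0.05 together with a log2 fold change over 1 in size. Of the 17442 rows tested, 27.6% were called higher and 11.5% lower. The filter on low counts kept 9 crystallins and 16 retina genes. In immature libraries alone it kept Cryab, Crybb3 and Rom1, so the others passed through their mature counts. Such a filter favours genes that are higher in mature mTEC, and the number called is no measure of the lists. The adjusted p of a gene that passed in this way is conditional on the filter and describes the counts of that gene only. For genes with empty immature libraries the fitted fold depends on the prior count of the test. Sizes are therefore given below as the ratio of pooled CPM, with a 95% exact interval for counting error only.

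**Figure D1:**
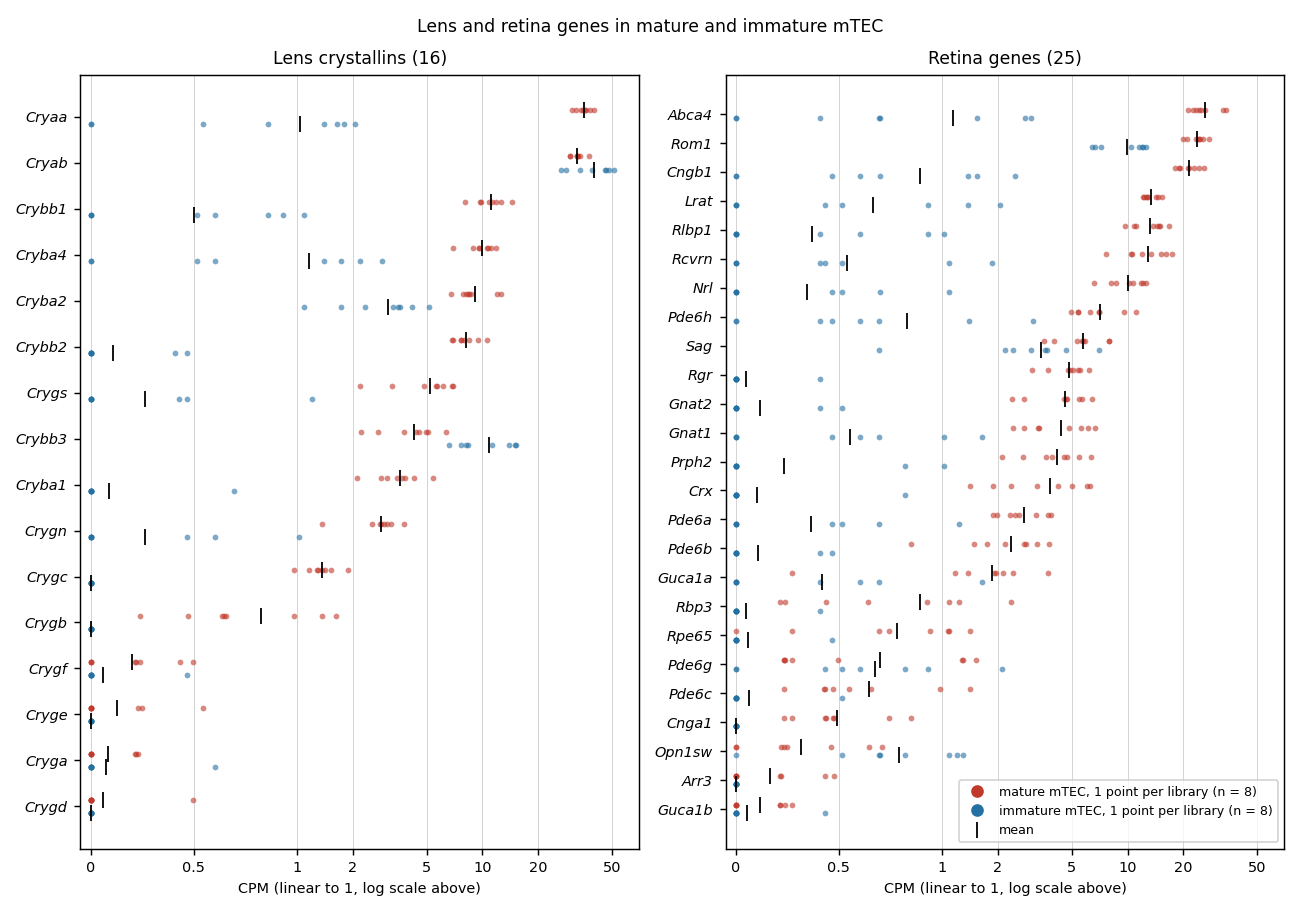
CPM of the 16 crystallins (left) and the 25 retina genes (right) in each library, on an axis that is linear to 1 CPM and logarithmic above; red points are the 8 mature and blue points the 8 immature libraries, and black ticks are means. Most genes sit to the right in mature mTEC, Crybb3 sits to the left, and Cryab and Sag overlap.

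The alpha crystallins, both chaperones, differed from each other. Cryaa, the lens form, was at 30.6 to 40.1 CPM with a median of 35.4 in mature libraries, and immature libraries held 0 to 2.05 CPM. These were 1212 counts in mature and 17 in immature mTEC, a ratio of 31.5 (interval 19.6 to 54.3; edgeR adjusted p = 2.39e-17). Cryab, which is also made in muscle and many other tissues, was at 29.6 to 37.4 CPM in mature libraries, with a median of 32.5. It was at 26.7 to 51.3 CPM in immature libraries, with a median of 42.3. The groups overlapped, and the difference of -0.27 ± 0.0874 (log2, SE; edgeR adjusted p = 0.00783) stayed under the fold threshold. This difference averages over lines that were not alike. Means of the Rbfox1 line were nearly equal, at 32.0 (mature) against 31.9 CPM (immature). Those of the Rbfox2 line were 33.0 against 47.8 CPM, so the lower mature mean came from that line. Whether the lines differed in this respect was not tested. Cryaa made up 28.3% and Cryab 26.1% of the summed crystallin CPM in mature mTEC. In immature mTEC, Cryab made up 69.5% and Crybb3 18.9%.

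Exons of Cryab share 252 bases with Hspb2 on the other strand. Hspb2 had 11 to 19 counts per mature library against 119 to 159 for Cryab. Cryaa shares 273 bases with the antisense gene AC090881.2. No strand setting was found for the counting step, so reads from these stretches cannot be assigned to either gene.

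All 6 beta crystallins were counted in every mature library, and 5 were higher there. Crybb1 was at 8.05 to 14.4 CPM with a median of 11 in mature libraries and at 0 to 1.09 CPM in immature ones, a ratio of 21.2 (10.6 to 49.4). Its neighbour Cryba4 starts 3296 bases away, on the other strand, and was at 6.92 to 11.8 CPM (median 10.1) against 0 to 2.87 CPM. The ratio for Cryba4 was 7.56 (4.82 to 12.5). Thus the divergent neighbours were both higher in mature mTEC and did not overlap between populations. The edgeR adjusted p was 1.68e-11 for Crybb1 and 1.3e-10 for Cryba4.

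Crybb2 and Crybb3, which lie 5721 bases apart on the same strand, went in opposite directions. Crybb2 was at 6.83 to 10.6 CPM with a median of 7.83 in mature libraries. It had 1 count in each of 2 immature libraries and 0 in the other 6, a ratio of 62.8 (17.2 to 521; edgeR adjusted p = 3.28e-11). Crybb3 was at 2.22 to 6.34 CPM with a median of 4.46 in mature libraries and at 6.62 to 15.2 CPM with a median of 9.81 in immature ones. It was lower in mature mTEC in 8 of 8 mice, by -1.33 ± 0.224 on the log2 scale (edgeR adjusted p = 8.17e-06), and 11.5% of rows tested were called in that direction. The count of Crybb3 was 9 to 29 per mature and 11 to 35 per immature library. Of the stretches shown above, that of Crybb3 held TGCTGA and that of Crybb2 held none of the 3 motifs.

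Cryba2 was higher in mature mTEC by a smaller factor, at 6.81 to 12.6 CPM (median 8.43) against 1.09 to 5.14 CPM (median 3.39), with a log2 fold change of 1.58 ± 0.239 (edgeR adjusted p = 1.74e-06). Cryba1 was at 2.12 to 5.44 CPM with a median of 3.58 in mature libraries, and 1 count was found in all immature libraries together. Its ratio of 54.4 therefore has a wide interval, from 9.59 to 2167.

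**Figure D2:**
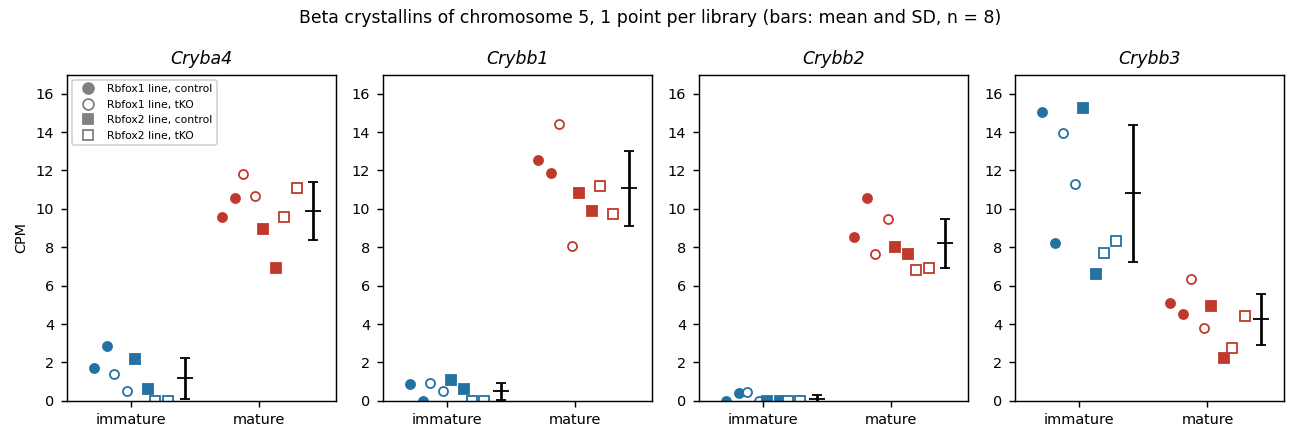
CPM of the beta crystallins of chromosome 5 in each immature (blue) and mature (red) library, with the mean and SD of 8 libraries beside each group; circles are the Rbfox1 and squares the Rbfox2 line, filled for control and open for tKO mice. Cryba4, Crybb1 and Crybb2 were higher in mature mTEC, and Crybb3 was higher in immature mTEC, without overlap in any of the 4 genes.

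The gamma crystallins were the most thinly counted group of the lens. Crygs, which lies apart on chromosome 16, was at 2.19 to 6.92 CPM (median 5.66) in mature libraries and 0 to 1.2 CPM in immature ones, a ratio of 19.5 (7.47 to 72.2; edgeR adjusted p = 1.38e-07). Crygn, on chromosome 5, was at 1.37 to 3.76 CPM against 0 to 1.03 CPM, and its 4 immature counts gave a ratio of 10.8 (4.1 to 40.6). The other 6 lie on chromosome 1, with Cryge, Crygd, Crygc, Crygb and Cryga side by side on the minus strand. Among these, Crygc (47 counts) and Crygb (28 counts) were counted in every mature library and in no immature one. Against a floor of 3 counts over the immature libraries, put in for the 0 found, the ratio was 6.93 for Crygc and 4.13 for Crygb. These ratios leave out the counting error of the mature counts and are no lower bounds.

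Cryga, Crygd, Cryge and Crygf had 3, 2, 4 and 7 counts in all mature libraries together and 1, 0, 0 and 1 in immature ones, too few to compare. Crygd and Cryge share a stretch of 180 identical bases, longer than a read of 150 bases, so their counts are uncertain. Cryga shares 350 bases with Gm28845 on the same strand.

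Levels per kilobase used the length of all annotated exons of a gene, so they compare genes only roughly. The highest crystallins in mature mTEC were Cryab at 22.0 CPM per kb, Cryaa at 16.9, Cryba4 at 11.8 and Crybb1 at 11.2. The lowest was Crygd at 0.0601. Cryba4 and Crybb1 did not differ beyond their spread between libraries.

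Among the rod genes, Cngb1, a subunit of the cyclic GMP-gated channel, was at 18.1 to 25.7 CPM with a median of 21.3 in mature libraries. Immature libraries held 0 to 2.46 CPM, so that the ratio was 23.3 (13.8 to 42.8; edgeR adjusted p = 7.81e-14). The partner subunit Cnga1 had 1 to 4 counts in each mature and 0 in each immature library. Its ratio against a floor of 3 counts over the immature libraries was 2.51, without the counting error of the mature counts. The rod transducin Gnat1 was at 2.41 to 6.67 CPM (median 4.09) against 0 to 1.64 CPM, a ratio of 7.37 (3.78 to 16.4; adjusted p by edgeR, 2.95e-06). Both catalytic subunits of the rod phosphodiesterase were higher in mature mTEC without overlap. Pde6a was at 1.88 to 3.88 CPM (median 2.53) against 0 to 1.23 CPM, and Pde6b at 0.851 to 3.79 CPM (median 2.48) against 0 to 0.466 CPM. Their ratios were 7 (3.1 to 19.6) and 17.9 (4.8 to 150), with edgeR adjusted p of 2.03e-05 and 2.91e-05. The inhibitory subunit Pde6g had 25 counts in mature and 10 in immature mTEC and overlapped throughout.

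Sag encodes S-arrestin, which ends the light response by binding to the activated opsin. It was at 3.53 to 7.98 CPM (median 5.73) in mature and 0.694 to 7 CPM (median 3.3) in immature libraries. The ranges overlapped, although the mature library was the higher in 8 of 8 mice. The log2 difference of 0.76 ± 0.274 (edgeR adjusted p = 0.0141) stayed under the fold threshold. It was 1.36 (edgeR adjusted p = 0.00049), and called, without the immature library of Rbfox2 tKO replicate 1, which held 10 of the 52 immature counts. Sag transcripts share runs of up to 199 identical bases with transcripts of other genes, so part of these counts is uncertain.

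Of the cone genes, Gnat2 and Pde6h were counted well above the rest. The cone transducin Gnat2 was at 2.37 to 6.42 CPM (median 4.69) in mature libraries, and 2 counts were found in immature ones, a ratio of 34.7 (9.45 to 289; edgeR adjusted p = 8.91e-08). The cone phosphodiesterase subunit Pde6h was at 4.96 to 11.1 CPM (median 6.62) against 0 to 3.08 CPM, with a ratio of 8.92 (5.01 to 17.5; edgeR adjusted p = 1.85e-08). Pde6h shares 136 exon bases with Arhgdib on the other strand, which had 836 to 968 counts per mature library. The catalytic subunit Pde6c had 22 counts in mature and 1 in immature mTEC, and cone arrestin Arr3 had 6 and 0. The short-wave opsin Opn1sw had 11 and 12 counts, a ratio of 0.406 (0.162 to 1). Of its exons 397 bases overlap Calu on the other strand, which averaged 177 CPM in mature libraries against 315 CPM in immature ones. Whether its counts stem from Calu was not tested.

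Of the calcium sensors, recoverin (Rcvrn) was at 7.66 to 17.3 CPM (median 12.7) against 0 to 1.86 CPM, a ratio of 21.7 (11.3 to 47.8; edgeR adjusted p = 4.05e-11). Guca1a, an activator of guanylate cyclase, was at 0.273 to 3.71 CPM against 0 to 1.63 CPM and overlapped. Its neighbour Guca1b had 4 counts in mature and 1 in immature mTEC. The disc rim proteins peripherin-2 (Prph2) and Rom1 form complexes with each other. Prph2 was at 2.12 to 6.34 CPM (median 4.23) against 0 to 1.03 CPM, a ratio of 16 (6.13 to 59.6; edgeR adjusted p = 4.32e-07). Rom1 was at 19.9 to 27.5 CPM (median 24.2) against 6.46 to 12.6 CPM (median 10.9), with a log2 fold change of 1.26 ± 0.142 (edgeR adjusted p = 1.56e-08). Rom1 thus made up 45.5% of the summed retina CPM in immature and 14.3% in mature mTEC.

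In the visual cycle, 4 genes were higher in mature mTEC without overlap. Abca4, the transporter of retinoids in the disc rim, was at 21.3 to 34.1 CPM with a median of 24.6, against 0 to 3.01 CPM. The ratio was 23.5 (14.6 to 40.5; edgeR adjusted p = 3.16e-14). Lrat, which makes retinyl esters, was at 12.1 to 15.3 CPM (median 12.8) against 0 to 2.05 CPM. Rlbp1, the retinaldehyde-binding protein CRALBP, was at 9.71 to 16.8 CPM (median 14.1) against 0 to 1.03 CPM. The ratios were 18.5 (10.2 to 37.2) for Lrat and 33.5 (15.3 to 91.9) for Rlbp1, and the edgeR adjusted p was 2.2e-12 and 1.71e-12. The opsin-like Rgr was at 3.06 to 6.16 CPM (median 5.01) in mature libraries, and 1 count was found in immature ones. Its ratio of 73.4 (13 to 2918) was the highest among those of the 41 genes with immature counts, with one of the widest intervals.

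Rpe65, the isomerase of the cycle, and Rbp3, which carries retinoids between cells, were near the limit of detection. Rpe65 had 27 counts in mature and 1 in immature mTEC, and Rbp3 had 30 and 1. Each was counted in 1 immature library, and their ranges of CPM overlapped.

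The transcription factors Nrl, which sets rod identity, and Crx, which acts in rods and cones, were both higher in mature mTEC. Nrl was at 6.56 to 12.5 CPM (median 10.4) against 0 to 1.09 CPM, a ratio of 30.9 (13.1 to 95.7; edgeR adjusted p = 4.5e-11). Crx was at 1.42 to 6.28 CPM (median 3.72), and both its immature counts were in 1 library, a ratio of 28.8 (7.8 to 240; edgeR adjusted p = 5.13e-06). The counts of Crx in single mature libraries, from 6 to 28, varied the most of the genes tested relative to counting noise, with a chi-square per degree of freedom of 3.95. It was 0.474 for Lrat. The median was 1.79 over the 27 lens and retina genes tested in mature mTEC and 1.93 over 18021 rows. Below a mean count of 50, where counting noise weighs more, it was 1.79 over 19 of these genes and 1.43 over 6990 rows.

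Per kilobase, the retina genes ran in mature mTEC from Rom1 at 15.7 CPM per kb and Rcvrn at 12.3 to Rlbp1 at 4.49, Lrat at 2.49 and Cngb1 at 2.29. The last 2 of these lay within the spread of each other. The lowest was Guca1b at 0.0481.

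Genes of other cells were compared between the same populations, where 27.6% of all rows tested were called higher in mature mTEC and 11.5% lower. Of 6 thymocyte and blood cell genes, among them Cd4 and Ptprc, 3 passed the filter and all 3 were called higher in mature mTEC, with a summed level of the 6 of 45.6 to 58.3 CPM against 3.44 to 23.4 CPM. Of 5 fibroblast genes, 4 were called lower in mature mTEC, with sums of 290 to 478 CPM against 252 to 1838 CPM. Of 7 muscle genes, 1 was called higher and 3 lower, with sums of 481 to 633 CPM against 1059 to 1748 CPM. No gene of these lists was at 0 in either population, and their part in the lens and retina levels was not tested. Cortical TEC genes (Psmb11, Prss16, Ly75 and Dll4) summed to 168 to 229 CPM in mature and 139 to 195 CPM in immature mTEC. The part of cortical TEC was not tested either. Without the immature library with the most thymocyte counts, from the male Rbfox1 control mouse, 27 of the 41 genes were higher in mature mTEC without overlap. The share of all rows was not computed without that library.

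Further genes of both organs were taken from lists drawn up by role. Of 18 other lens genes, 7 passed the filter, 4 were called higher in mature mTEC and 1, Prox1, lower, where 27.6% and 11.5% of all rows tested were called. Mip, the water channel of lens fibres, was at 8.53 to 18.1 CPM against 0 to 0.82 CPM, a ratio of 55.6 (21.6 to 205). Maf, a regulator of crystallin genes, was at 59.2 to 82.0 CPM against 61.7 to 90.2 CPM (log2 difference -0.22 ± 0.0814), and the lens filament gene Bfsp1 was at 4.92 to 8.94 against 1.64 to 7.75 CPM (0.74 ± 0.252). Neither passed the fold threshold. Prox1, which is also active outside the lens, was at 4.32 to 9.88 against 10.8 to 18.0 CPM (log2 fold change -1.15 ± 0.152; edgeR adjusted p = 2.22e-07).

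Of 39 other retina genes, 22 passed the filter, 14 were called higher and 1, the G protein subunit Gnb3, lower, against the same 27.6% and 11.5%. In both lists, genes with near-empty immature libraries, such as Mip and Slc24a1, passed through their mature counts, so these numbers are no measure of the lists either. Slc24a1, the rod sodium-calcium-potassium exchanger, was at 19.8 to 35.1 CPM against 0 to 1.4 CPM, a ratio of 36.7 (20.4 to 73.8). Rgs9, which speeds the end of the light response, was at 39.7 to 54.6 against 22.9 to 28.8 CPM (log2 difference 0.96 ± 0.0892). Cdhr1, a photoreceptor cadherin, was at 388 to 540 against 429 to 665 CPM (-0.23 ± 0.0467). Both stayed under the fold threshold. Gnb3, a subunit used in cones and also in taste cells, was at 13.0 to 35.0 against 62.8 to 132 CPM (log2 fold change -1.98 ± 0.119; edgeR adjusted p = 9.13e-14). Prox1 and Gnb3 were singled out after their values were seen.

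The second question was whether loss of Rbfox1 or Rbfox2 altered the levels of lens and retina genes. No gene of either organ was called in any of the 4 comparisons. In mature mTEC, 10 crystallins and 17 retina genes were tested, and 0 were called, where 0.0166% of 18021 rows were called for Rbfox1 tKO and 0.0277% for Rbfox2 tKO. In immature mTEC, Cryab, Crybb3 and Rom1 were tested and 0 were called, against 0.0306% and 0.0536% of 13060 rows. DESeq2 called 0 of them in each comparison as well. Without adjustment, 0 of the 27 and 0 of the 3 genes had an edgeR p under 0.05, against 3.35% and 5.34% of rows in mature and 5.9% and 6.25% in immature mTEC.

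In mature mTEC, the summed crystallin level was at 126 and 128 CPM in Rbfox1 control, 129 and 124 CPM in Rbfox1 tKO, 123 and 124 CPM in Rbfox2 control and 121 and 121 CPM in Rbfox2 tKO libraries. The summed retina level was at 149 and 184, 167 and 167, 159 and 168, and 165 and 173 CPM in the same order. For both sums, tKO and control libraries of the Rbfox1 line overlapped. In the Rbfox2 line, both tKO libraries had slightly lower crystallin sums than both controls, and the retina sums overlapped. Of all rows tested in that line, 34.9% did not overlap between tKO and control libraries in either direction.

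Cryaa was at 35.7 and 40.1 CPM in Rbfox1 control, 36.3 and 33.9 CPM in Rbfox1 tKO, 30.6 and 37.8 CPM in Rbfox2 control and 35.0 and 31.9 CPM in Rbfox2 tKO mature libraries. Cryab was at 32.6 and 29.6, 33.5 and 32.5, 37.4 and 32.4, and 32.5 and 29.6 CPM, and Crybb1 at 12.6 and 11.9, 14.4 and 8.05, 10.8 and 9.88, and 11.2 and 9.71 CPM. No pair of tKO libraries of these 3 crystallins stood apart from its controls. Among the retina genes, Abca4 was at 21.3 and 34.1, 26 and 32.7, 23.3 and 25, and 22.4 and 24.3 CPM, and Rom1 at 24.5 and 19.9, 24.1 and 23.5, 25.4 and 21, and 24.3 and 27.5 CPM. Cngb1 was at 18.1 and 22.9, 19.3 and 19.0, 24.2 and 21.5, and 21 and 25.7 CPM. Lrat was at 15.3 and 12.7, 12.3 and 12.6, 14.6 and 12.1, and 14.2 and 12.9 CPM, and Rlbp1 at 11.1 and 14.7, 13.8 and 9.71, 10.8 and 16.8, and 15.0 and 14.3 CPM. Of these 5, Lrat alone had both tKO libraries of a line below both controls, in the Rbfox1 line.

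Over the 27 genes, the log2 fold changes for Rbfox1 tKO ran from -0.63 ± 0.458 for Pde6a to 0.59 ± 0.312 for Pde6h, which had the smallest p, 0.0749 by edgeR before adjustment. For Rbfox2 tKO they ran from -1.45 ± 0.719 for Guca1a (edgeR adjusted p = 0.926) to 0.62 ± 0.566 for Crx. The Guca1a value rests on 1 and 6 counts against 5 and 15, and on which mice are left in: it moved between -3.03 and -0.43 when a library was left out. The standard errors ran from 0.147 for Cryaa in the Rbfox1 line to 0.719, and with 2 mice per genotype a change smaller than a few standard errors was not detectable at this depth. In the Rbfox1 line, both tKO libraries lay above both controls for 2 crystallins and 1 retina gene and below them for 1 and 2, while 30.8% of all rows tested did not overlap in either direction. In the Rbfox2 line they lay above for 1 crystallin and 2 retina genes and below for 1 and 1, against 34.9% of rows.

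**Figure D3:**
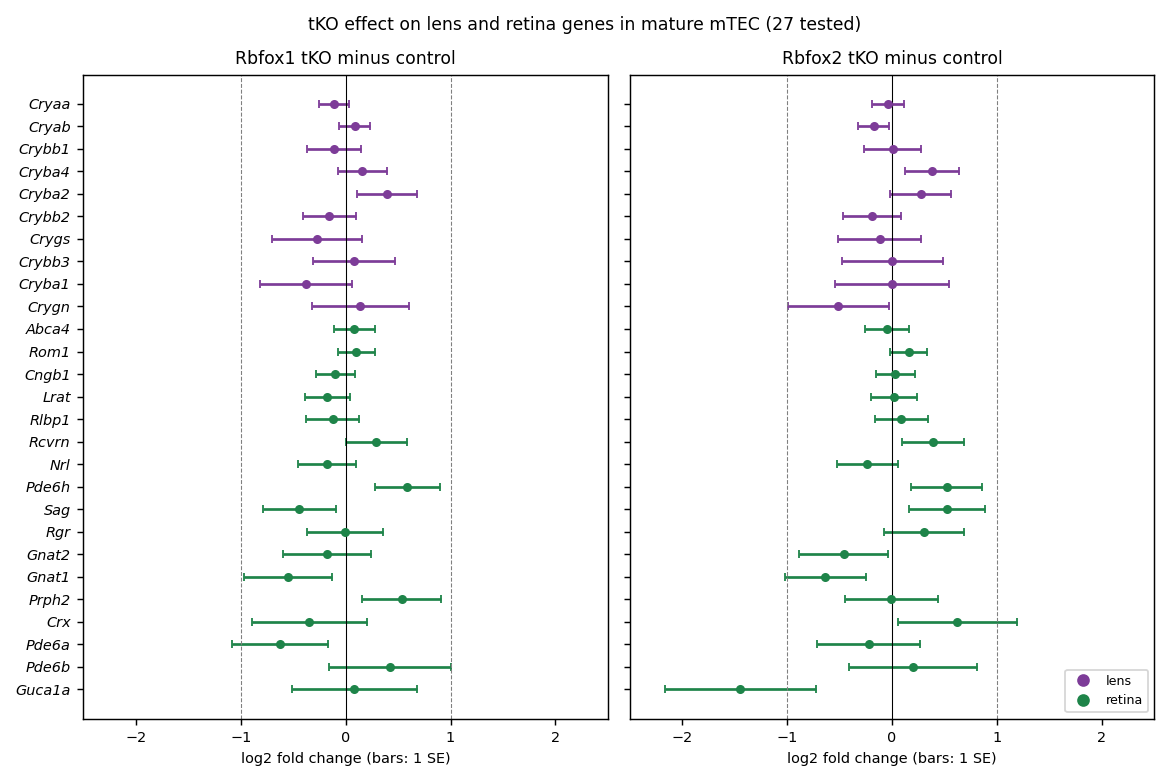
Log2 fold change of tKO minus control in mature mTEC of the Rbfox1 (left) and Rbfox2 (right) line for the 27 lens (purple) and retina (green) genes tested, with 1 SE; dashed lines mark a log2 fold change of 1 in either direction. The values scatter around 0, and Guca1a in the Rbfox2 line lies past the dashed line with the longest error bar.

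In immature mTEC, Cryab was at 33.6 and 26.7 CPM in Rbfox1 control, 39.1 and 28.2 CPM in Rbfox1 tKO, 46.3 and 48.1 CPM in Rbfox2 control and 45.5 and 51.3 CPM in Rbfox2 tKO libraries. Crybb3 was at 15.1 and 8.20, 14.0 and 11.3, 15.2 and 6.62, and 7.70 and 8.32 CPM, and Rom1 at 6.46 and 11.5, 12.1 and 6.68, 12.0 and 7.22, and 12.6 and 10.4 CPM. The tKO and control libraries overlapped for all 3 genes in both lines.

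No difference of the tKO effect between lines or between populations was called for these genes. The difference between the Rbfox1 and the Rbfox2 effect was called for 0 of 27 genes in mature and 0 of 3 in immature mTEC, against 0.00555% and 0.00766% of rows tested, at an edgeR adjusted p under 0.05. Without adjustment 0 of 27 and 0 of 3 genes had a p under 0.05, against 4.66% and 4.43% of rows. The difference of the tKO effect between mature and immature mTEC was called for 0 of 25 genes in either line, as for 0.0% of rows. Without adjustment, the edgeR p was under 0.05 for 1 of 25 genes in the Rbfox1 line (Abca4) and for 2 in the Rbfox2 line (Cryba4, with an adjusted p of 0.842, and Cryaa, with 0.914), against 3.74% and 5.21% of rows. DESeq2 called 0 genes in each of these tests. These 3 were named after their values were seen. In both immature libraries of the Rbfox2 tKO mice, Cryaa and Cryba4 had 0 counts, against 1 and 3 counts of Cryaa and 4 and 1 of Cryba4 in their controls. Such counts do not show a difference at this depth.

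The third question was whether the lines differed, whatever the genotype. The labels give no litter, so line and litter cannot be told apart. In mature mTEC, 0 of the 27 genes were called between the lines by edgeR or DESeq2, against 1.04% of rows by edgeR. Without adjustment 0 of 27 had an edgeR p under 0.05, against 27.9% of rows. The shares are not at like counts, since 19 of the 27 genes and 6990 of 18021 rows had a mean count under 50. Standard errors of the 27 ran from 0.105 for Cryab to 0.471 for Guca1a, so small differences were not detectable. The log2 differences (Rbfox1 line minus Rbfox2 line) ran from -0.57 ± 0.286 for Gnat1 to 0.53 ± 0.288 for Prph2, with a median of 0.05 over the crystallins, 0.01 over the retina genes and 0.00 over all rows. Aire differed between the same libraries, and whether the 27 genes followed it was not tested. It was at 1237 to 1585 CPM in mature mTEC of the Rbfox1 line and at 640 to 910 CPM in the Rbfox2 line, a log2 difference of 0.995 ± 0.0804 (edgeR adjusted p = 2.64e-07) that lay just under the fold threshold. The summed crystallins were at 124.1 to 128.8 CPM in the Rbfox1 line and 120.7 to 123.8 CPM in the Rbfox2 line. Every Rbfox1 library thus lay above every Rbfox2 library by a small margin. The share of all rows that separated in this way was not computed. Cryaa gave 28.3% and Cryab 26.1% of the summed crystallin CPM in mature mTEC. The summed retina genes were at 149 to 184 and 159 to 173 CPM and overlapped.

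In immature mTEC, Cryab was the only one of the 3 genes tested with an adjusted p under 0.05 between the lines. It was at 26.7 to 39.1 CPM in the Rbfox1 line and 45.5 to 51.3 CPM in the Rbfox2 line, without overlap. The log2 difference of -0.58 ± 0.141 (edgeR adjusted p = 0.00686) was under the fold threshold, so that 0 of 3 genes were called, against 5.05% of rows, and 1 of 3 at the adjusted p alone, against 23.4% (35.5% without adjustment). The DESeq2 adjusted p was 0.0516. Fibroblast genes moved with it. All 5 were called lower in the Rbfox1 line, with a summed level of 252 to 491 CPM against 1269 to 1838 CPM. The 7 muscle genes, of which 1 was called higher and 0 lower, were at 1059 to 1344 CPM against 1194 to 1748 CPM. The summed mTEC identity genes were at 7187 to 8031 against 9233 to 9754 CPM. The summed immature markers were at 843 to 1029 against 1048 to 1170 CPM. Both sums were thus lower in the Rbfox1 line without overlap. The sums of the mature mTEC, cortical TEC and thymocyte and blood cell genes overlapped. The part of any of these cell types in the Cryab level was not tested. Aire was at 213 to 299 CPM in the Rbfox1 and 19.6 to 54.1 CPM in the Rbfox2 line. The summed retina genes were at 12.5 to 29.5 and 17.5 to 25.9 CPM and overlapped. The summed crystallins were at 43.1 to 61.0 and 56.7 to 66.4 CPM and overlapped, with the higher mean in the Rbfox2 line.

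**Figure D4:**
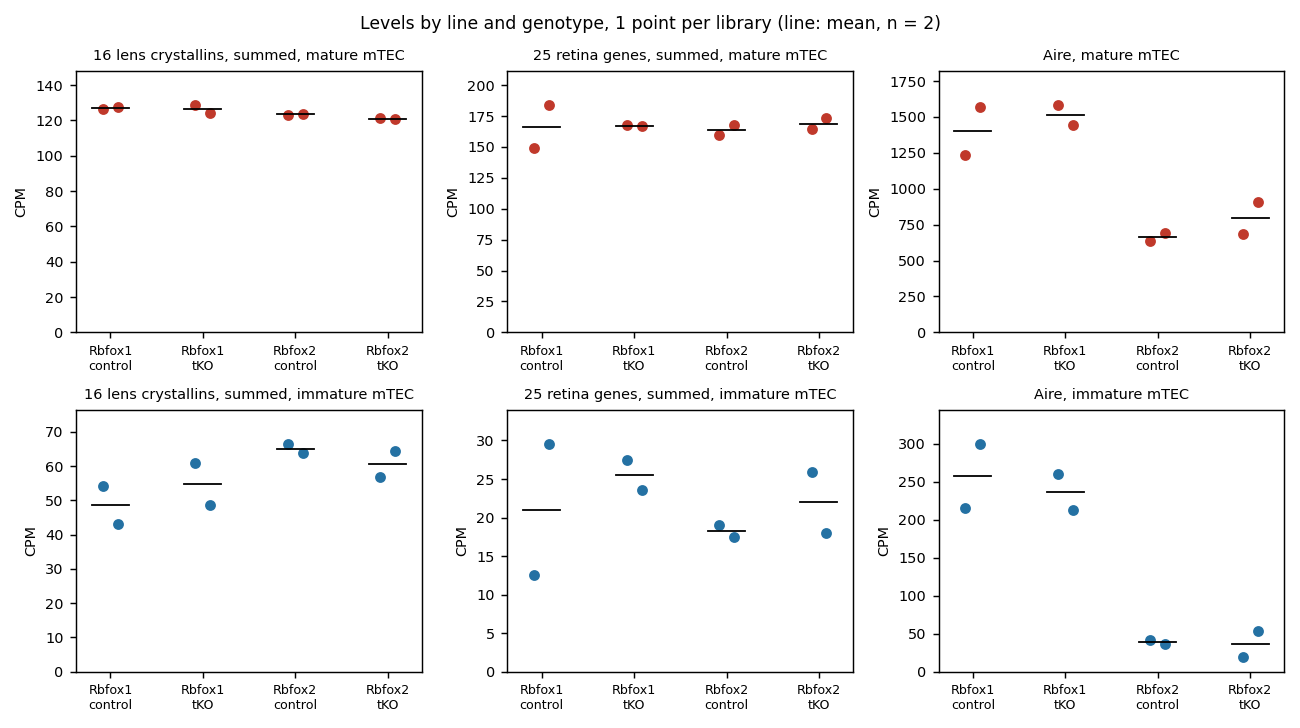
Summed CPM of the 16 crystallins (left) and the 25 retina genes (middle) and CPM of Aire (right) in mature (top) and immature (bottom) mTEC by line and genotype, with 1 point per library and a bar at the mean of 2. Aire was higher in both populations of the Rbfox1 line. The mature crystallin sums were slightly higher there, at 124.1 to 128.8 against 120.7 to 123.8 CPM, and the mature retina sums overlapped. The immature crystallin sums overlapped, at 43.1 to 61.0 against 56.7 to 66.4 CPM, with the higher mean in the Rbfox2 line. The immature retina sums overlapped as well.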

How the data were processed

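Mature and immature mTEC of 8 mice were profiled by stranded, paired-end poly(A) RNA-seq. The authors deposited 1 table of counts per gene, without normalization. Per its column names, libraries had been down-sampled to 14500000 (mature) or 10000000 (immature). Processing notes name HISAT2 2.1.0, Picard 2.10.9, featureCounts 1.6.0 and mm10. For the counting, use of strand is not given in the sources.

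Everything further was computed anew. Counts were tested across all rows with edgeR 4.0.16 in R 4.3.3 (TMM, filterByExpr at a minimum count of 10, quasi-likelihood test, a mean per condition, Benjamini-Hochberg adjustment). Calls needed an adjusted p under 0.05 and, except for interactions, an absolute log2 fold change over 1. Standard errors of log2 fold changes are approximate. They were computed as the absolute log2 fold change over the square root of the edgeR F statistic. Fits used 16 libraries with 8 residual degrees of freedom, or the 8 of a population with 4. The fits were first tested on simulated data. The simulated rows had higher counts than near-empty immature libraries hold, so this check does not cover such genes. Names, positions and exon lengths came from GENCODE M21, and promoters from RefSeq, both GRCm38. Python 3.11.15 was used elsewhere.

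The members and lists were chosen with earlier results of these data known. All 41 members are accounted for. Values are given for members called in any comparison, for the 3 lens and 5 retina genes with the highest mature mean, and for the 3 highest of each further list. Replicates are separate mice, and the libraries of a condition differed by more than counting noise (chi-square per degree of freedom of 1.87 to 3.00). Same-numbered mature and immature libraries were taken to come from 1 mouse, and their deviations from the group means correlated by 0.0868 to 0.161. Same-numbered tKO and control mice are of 1 sex by the labels. The methods name littermate controls without tying them to a number. Alternatives were DESeq2 1.42.0, other scalings and filters, no fold threshold, a replicate block, subsets and each library left out. Further checks of the count of genes without overlap were added after the data were seen.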

Additional observations from a re-analysis of the deposited data

How the results depend on the processing

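The direction of each named fold change held in 863 of 863 repeats, of which 780 belong to mature against immature mTEC. Of the 863, 843 also stayed on the same side of the threshold. In mature against immature mTEC, 23 genes were called, and 21 to 26 with a library left out. With at least 10 counts in every library, 1 gene was called, since Cryab and Rom1 alone could then be tested. In the immature line comparison, 1 gene, Cryab, was called with no fold threshold. Every comparison of tKO with control, and every interaction, gave 0 in each alternative run, which says little of stability with 2 mice per genotype and 3 to 27 genes tested. The replicate block left 23 genes called between mature and immature mTEC and 0 in the other comparisons fitted with it. Between tKO and control mice the number marks no stated pair, and deviations of same-numbered libraries correlated by 0.0337 to 0.147. Thinning all libraries to the smallest left 20 genes without overlap in place of 26, library totals left 26, and leaving out the male Rbfox1 control mouse's immature library gave 27. The share of all rows without overlap was not computed under these settings. Depth limits the immature levels most, where 5 of the 41 genes had a count in every library.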

Other observations

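The few lens and retina counts of immature mTEC came from a handful of genes. Cryab, Crybb3 and Cryba2 gave most of the crystallin counts, and Rom1 and Sag most of the retina counts. Genes at 0 in all 8 immature libraries, beside Crygb, Crygc and Cnga1, included the retinal regulator Otx2 (49 counts in mature mTEC) and the opsin Opn5 (55 counts), which were counted in all 8 mature libraries. Against a floor of 3 counts over the immature libraries, the ratio was 8.11 for Opn5 and 7.23 for Otx2, without the counting error of the mature counts. The melanopsin gene Opn4, which is used by light-sensitive ganglion cells and not by photoreceptors, had 209 counts in mature and 1 in immature mTEC, a ratio of 92.5 (16.4 to 3669, exact 95% interval for counting error only). Sox1 was listed at 0 counts in all 16 libraries. These genes were picked after their values were seen.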
